A study of Schmidtea mediterranea with 24 samples.

Results

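A set of 91 planarian genes had lower mRNA values in both fibrillarin knockdowns of *Schmidtea mediterranea*, a freshwater flatworm that rebuilds lost body parts from stem cells called neoblasts. Each of the 16575 genes in the RNA-seq tables was taken on the scale log2(value + 1). A gene was a member when the mean of its 3 knockdown libraries lay at least 0.5 below that of its 3 controls in both knockdowns, when all knockdown values lay below all control values in both, and when its control mean was 50 or more in both. These thresholds were met by 98 genes, of which 7 were left out by name (both PRSS12 genes, MIOX, ACSL5, FTMT, ABCC1 and FZD4). The members were thus chosen by their mRNA values, which are given as a description with no test. Ribosome footprints, which the choice did not use, were tested.

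The animals were regenerating head, trunk and tail pieces at 48 h after amputation, fed double-stranded RNA against 1 of 2 fibrillarin homologs or against egfp, a jellyfish gene that the worm lacks. Worms under fbl-1 KD have controls labelled egfp KD, and worms under fbl-2 KD have separate controls labelled egfp 2x KD. In the study's methods the RNAi food for fbl-1 KD was at a 4x concentration and that for fbl-2 KD at 2x, so the knockdowns differ in the dose fed as well as in the gene. Each of the 4 groups has 3 replicates, each a pool of worms whose lysate was divided between RNA-seq and Ribo-seq, so the footprints are separate libraries from the same lysates. Ribo-seq counts the short stretches of mRNA that ribosomes cover, and its values follow both the amount of an mRNA and how densely ribosomes sit on it. The footprints are therefore not independent of the mRNA values that chose the members. Shares over all genes, set beside those of the members below, come from genes not chosen in this way. In pools of whole pieces, fewer cells of a type and less RNA per cell cannot be told apart.

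Fibrillarin is the enzyme that small nucleolar RNAs guide to ribosomal RNA, where it methylates the ribose of chosen nucleotides while the ribosome is being built. The planarian intestine is a branched sac of phagocytes and secretory goblet cells that takes up food, stores lipid and hands nutrients to the rest of the body, which has no blood vessels. Around it lie muscle fibres, which secrete much of the matrix, and the cells called cathepsin+, which include phagocytic and pigment cells.

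In these values the targeted genes went against the labels. The study itself measured its knockdowns by quantitative PCR and in situ hybridization, and reports lower mRNA of each target. The mRNA of fbl-1 (SMED30005569) read 1383, 981 and 753 in the libraries labelled fbl-1 KD, against 143, 130 and 129 in egfp KD libraries. The mRNA of fbl-2 (SMED30025294) read 481, 773 and 982 in the libraries labelled fbl-2 KD, against 127, 135 and 144 in egfp 2x KD libraries. Both were higher in their own knockdown without overlap, and so were their footprints, with fbl-1 at 958, 690 and 833 in those labelled fbl-1 KD, against 338, 285 and 300 in egfp KD libraries, and fbl-2 at 1830, 4232 and 2293 in those labelled fbl-2 KD, against 294, 315 and 308 in egfp 2x KD libraries. Whether fed double-stranded RNA adds to these reads was not tested. The groups are therefore called by their labels throughout. All values are reads per gene after the authors' scaling of each library, which summed to between 8762055 and 9549828 for mRNA and between 9116524 and 10763740 for footprints.

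In mRNA, the median member stood under fbl-1 KD at 58.3% of its control mean and under fbl-2 KD at 60.4%, and 15 and 16 members stood at 50% or less. The log2 differences ran between -1.51 and -0.50 in fbl-1 KD, with a median of -0.78. In fbl-2 KD they ran between -1.74 and -0.51, with a median of -0.72. The median gene with a control mean of 50 or more was at -0.01 in fbl-1 KD and 0.00 in fbl-2 KD, so the members stand apart from the table by construction. Of the genes with a control mean of 50 or more, 4.49% met the thresholds in fbl-1 KD, 1.93% in fbl-2 KD and 0.926% in both, counts that the choice itself fixes. The mirrored thresholds were met by 63 genes higher in both.

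The edges of the set were narrow. RAB6B, at -0.57 in fbl-1 KD and -0.51 in fbl-2 KD, and BDH1, at -0.50 and -0.64 in the same order, lay just inside the limit of 0.5, while MARCH7 (SMED30003544), at -0.4999 in fbl-1 KD, and NDUFA10 (SMED30006140), at -0.4999 in fbl-2 KD, missed it. Unnamed SMED30007420 and SMED30008880, with egfp 2x KD means of 52 and 54.7, were just above the limit of 50, and SMED30027420 and SMED30012110, with egfp KD means of 49.3 and 48, fell outside it.

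**Figure D1:**
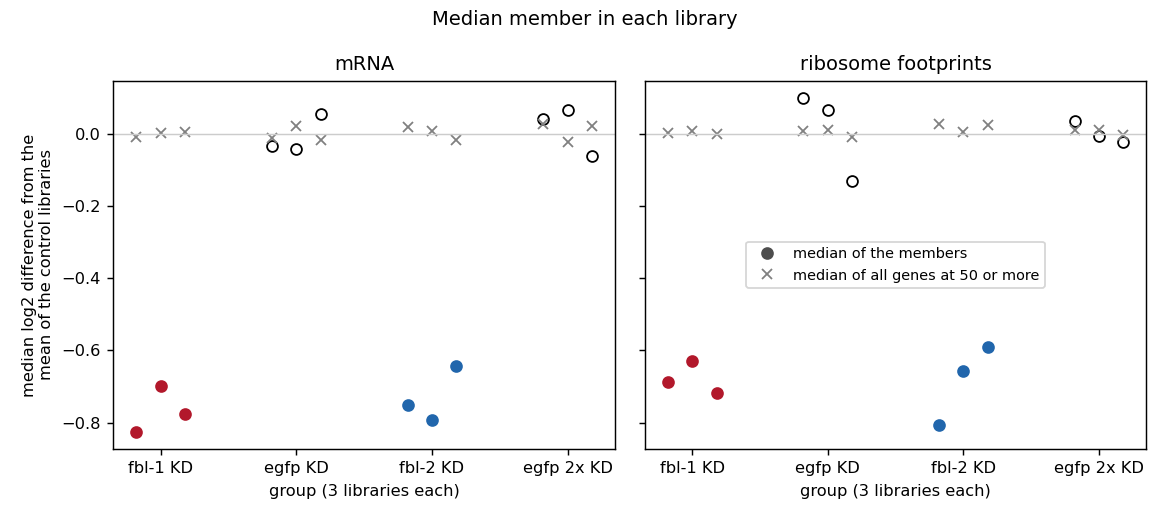
Median over the members of each library's log2 difference from the mean of its control libraries (circles), for mRNA on the left and footprints on the right, with the median over all genes at 50 or more in the controls (crosses). The mRNA circles of the knockdown libraries are low by the choice of members, and the 6 footprint knockdown libraries lie between -0.81 and -0.59, below all 6 controls.

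In footprints, 15 of 87 members tested were lower in the libraries labelled fbl-1 KD than in egfp KD libraries and 0 were higher, at an adjusted p of 0.05 (limma on log2(value + 1), Benjamini-Hochberg over all 12503 genes tested). That is 17.2% of the members tested, beside 0.488% of all genes tested called lower and 0.384% called higher. Every adjusted p given with a footprint change is from this test or its counterpart in fbl-2 KD. With a footprint change, ± is limma's SE, whose variance is moderated across genes. With an mRNA difference, ± is the SE of the libraries themselves. Under fbl-2 KD, 24 of 90 were lower and 0 higher, which is 26.7% beside 1.96% of all 12612 genes called lower and 1.17% called higher. Among genes whose control mRNA mean was 50 or more in both, as the members' is, 0.565% were called lower in fbl-1 KD and 2.35% in fbl-2 KD. At an unadjusted p under 0.05, 50 members were lower and 0 higher in fbl-1 KD, and 44 and 0 in fbl-2 KD. Both knockdowns called 12 members, fbl-1 KD alone 3 and fbl-2 KD alone 12, against 0.196% of all genes called lower in both.

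The count in fbl-1 KD rests on single libraries. It was 0 without the footprint library of column egfp-1 or of column fbl-1_3 (with 40 and 43 members lower at an unadjusted p under 0.05), 2 without egfp-2, 3 without fbl-1_2, 11 without fbl-1_1 and 22 without egfp-3. None of the 15 members called passed in all 6 omissions. In fbl-2 KD the count stayed between 19 and 29, and 17 of the 24 members called passed in all 6 omissions. The other 7 were DLL4, PLOD3, MVB12B, ABCG2 SMED30017487, Os01g0290100, SMED30024429 and SMED30011862, whose highest adjusted p over the omissions lay between 0.061 and 0.29. Without the mean-variance trend in limma, 0 members were called in either knockdown, with 50 and 43 lower at an unadjusted p under 0.05 in fbl-1 KD and in fbl-2 KD.

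The median footprint change of the members tested was -0.72 in fbl-1 KD, where all genes tested had a median of 0.02, and -0.72 in fbl-2 KD, where all genes tested had 0.02. Library by library, the median member differed from the control mean by -0.69, -0.63 and -0.72 in the libraries labelled fbl-1 KD, against 0.10, 0.07 and -0.13 in egfp KD libraries. The corresponding medians were -0.81, -0.66 and -0.59 in the libraries labelled fbl-2 KD, against 0.04, -0.01 and -0.02 in egfp 2x KD libraries. Footprints of 53 members in fbl-1 KD and 47 in fbl-2 KD lay below all controls without overlap, beside 12.5% and 8.96% of all genes tested in the same order, and 13.4% and 9.83% of those with control mRNA of 50 or more. Above all controls lay 0 members in fbl-1 KD and 1 in fbl-2 KD, beside 11.3% and 9.25% of all genes. Below all controls in both knockdowns lay 35 of 87, beside 3.07% of all genes. The members called all had control footprint means of 100 or more. Of the 19 members tested below that level in fbl-1 KD and the 18 in fbl-2 KD, 0 and 0 were called by limma, with 2 and 3 lower at an unadjusted p under 0.05.

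**Figure D2:**
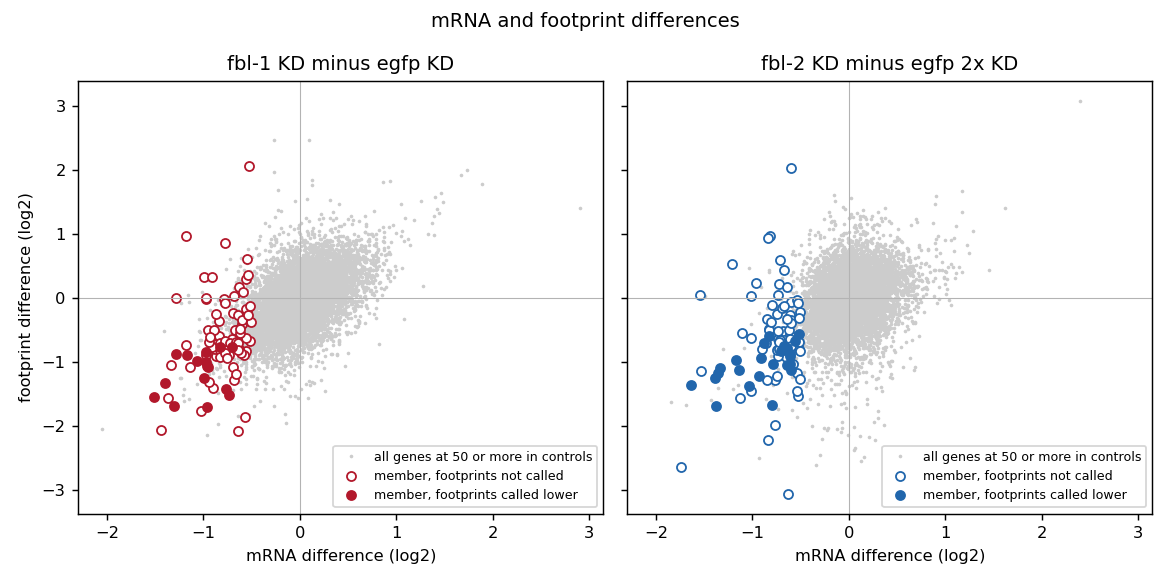
Log2 difference of mRNA (horizontal axis) and of footprints (vertical axis) in fbl-1 KD (left) and fbl-2 KD (right). Each circle is a member, filled where its footprints passed the test, and grey dots are all genes at 50 or more in the controls of both assays. Below 0 in footprints lie 77 of 87 members tested in fbl-1 KD and 79 of 90 in fbl-2 KD.

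By the known roles of their best matches, 9 members are secreted, matrix or adhesion proteins. In footprints 8 of them passed as lower in fbl-2 KD, the exception being the integrin ITGA8, beside 1.96% of all genes tested. In fbl-1 KD 2 passed (KCP and HMCN1), beside 0.488%. Below all controls without overlap lay 8 of the 9 in each knockdown, beside 8.96% of all genes in fbl-2 KD and 12.5% in fbl-1 KD. Their median footprint changes were -1.09 in fbl-2 KD and -0.86 in fbl-1 KD. KCP (SMED30003809), annotated by the study to the intestine, matches a secreted protein that modulates BMP signalling in vertebrates. KCP mRNA read 26616, 32444 and 25648 in the libraries labelled fbl-1 KD, against 57909, 69526 and 79690 in egfp KD libraries. In the other pair it read 20042, 19750 and 30155 in the libraries labelled fbl-2 KD, against 73390, 77199 and 63372 in egfp 2x KD libraries. The choice of members required every knockdown value to lie below the lowest control in both tables. The log2 differences were -1.29 ± 0.17 and -1.64 ± 0.22 (SE of the libraries, n = 3 libraries per group throughout). KCP footprints were 35466, 37370 and 37958 in those labelled fbl-1 KD, against 69627, 72323 and 61846 in egfp KD libraries. They were 33407, 31884 and 34388 in those labelled fbl-2 KD, against 86754, 76783 and 93614 in egfp 2x KD libraries. The footprint changes, -0.88 ± 0.15 (adjusted p = 0.035) in fbl-1 KD and -1.36 ± 0.07 (adjusted p = 8.5e-12) in fbl-2 KD by limma, both passed.

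TGFBI (SMED30000013) and POSTN (SMED30034597), matches of the fasciclin-domain matrix proteins that anchor cells in vertebrates, are annotated to the intestine alone. TGFBI mRNA was 1683, 2226 and 1532 in the libraries labelled fbl-1 KD, against 3055, 2988 and 3823 in egfp KD libraries. It was 1349, 892 and 1672 in the libraries labelled fbl-2 KD, against 3108, 3622 and 2853 in egfp 2x KD libraries. As the choice of members required, no knockdown mRNA value of TGFBI or of POSTN reached a control. POSTN mRNA was 2429, 3224 and 2491 in the libraries labelled fbl-1 KD, against 4225, 4192 and 5025 in egfp KD libraries. It was 1843, 1416 and 2141 in the libraries labelled fbl-2 KD, against 4343, 5057 and 4309 in egfp 2x KD libraries. Footprints of TGFBI passed in fbl-2 KD at -1.09 ± 0.10 (adjusted p = 5.9e-07) and had -0.90 ± 0.25 (adjusted p = 0.13) in fbl-1 KD. For POSTN the limma values were -1.18 ± 0.10 (adjusted p = 1.7e-07) in fbl-2 KD and -0.89 ± 0.22 (adjusted p = 0.098) in fbl-1 KD.

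HMCN1 (SMED30024938) matches hemicentin, a very long basement membrane protein. HMCN1 mRNA was 413, 462 and 342 in the libraries labelled fbl-1 KD, against 696, 710 and 966 in egfp KD libraries. It was 333, 284 and 440 in the libraries labelled fbl-2 KD, against 762, 809 and 731 in egfp 2x KD libraries. Its footprints stood at 532, 669 and 685 in those labelled fbl-1 KD, against 1419, 1301 and 1246 in egfp KD libraries, and at 395, 399 and 375 in those labelled fbl-2 KD, against 829, 926 and 810 in egfp 2x KD libraries. Both comparisons were without overlap and both passed, at -1.08 ± 0.15 (adjusted p = 0.018) and -1.13 ± 0.17 (adjusted p = 0.00019) by limma in fbl-1 KD and in fbl-2 KD.

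TNXB (SMED30004081), a match of tenascin-X, which organises collagen in mammals, was among the members with the widest gap between the knockdowns. TNXB mRNA was 1222, 1093 and 1171 in the libraries labelled fbl-1 KD, against 1681, 1844 and 1637 in egfp KD libraries. It was 738, 568 and 765 in the libraries labelled fbl-2 KD, against 1832, 1682 and 1833 in egfp 2x KD libraries. The log2 differences were -0.57 ± 0.07 in fbl-1 KD and -1.38 ± 0.14 in fbl-2 KD. TNXB footprints were 763, 1183 and 904 in those labelled fbl-2 KD, against 3278, 2582 and 3233 in egfp 2x KD libraries, a limma change of -1.69 ± 0.14 (adjusted p = 8.6e-08). In fbl-1 KD they were 1363, 1664 and 1737 in those labelled fbl-1 KD, against 3271, 3533 and 2033 in egfp KD libraries, without overlap but not past the threshold at -0.86 ± 0.21 (adjusted p = 0.099).

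Of the other matrix members, SPON1 (SMED30012850) matches F-spondin, a secreted adhesion protein of the developing vertebrate nervous system, HSPG2 (SMED30020058) matches the basement membrane proteoglycan perlecan and PLOD3 (SMED30002985) an enzyme that hydroxylates and glycosylates collagen lysines. SPON1 footprints fell in fbl-2 KD to 49.2% of the egfp 2x KD mean (-1.03, adjusted p = 2.7e-05), and had -0.86 (adjusted p = 0.16) in fbl-1 KD. HSPG2 had footprints of 6972, 7741 and 6855 in those labelled fbl-2 KD, against 10125, 10830 and 10904 in egfp 2x KD libraries, and of 7641, 9635 and 10260 in those labelled fbl-1 KD, against 15737, 18479 and 13875 in egfp KD libraries. HSPG2 passed in fbl-2 KD (-0.56, adjusted p = 6.4e-05) and not in fbl-1 KD (-0.81, adjusted p = 0.059), although neither comparison overlapped. PLOD3 passed in fbl-2 KD (-0.66, adjusted p = 0.0077) and not in fbl-1 KD (-0.86, adjusted p = 0.098), again with no overlap in either. ITGA8 (SMED30017880), an integrin subunit that binds matrix, had mRNA differences of -0.51 and -0.53, close to the limit, and footprint changes of -0.12 (adjusted p = 0.78) in fbl-1 KD and -0.08 (adjusted p = 0.91) in fbl-2 KD. A list of matrix genes taken by symbol held 31 genes, with 3 members (HMCN1, HSPG2 and TGFBI). It does not hold every matrix member named above. This list and those below take only genes with an entry in the part of the study's table held here. That part is ordered by change, so the other genes of a list are no fair sample of their family. Among its genes that are neither members nor left out by name, 0 passed as lower and 0 as higher of 27 tested in fbl-1 KD, with a median change of 0.24 (at an unadjusted p under 0.05, 2 lower and 8 higher), and 1 passed as lower and 3 as higher of 27 tested in fbl-2 KD, with a median change of 0.16 (at an unadjusted p under 0.05, 1 lower and 6 higher).

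Digestion, lipid handling and related metabolism account for 10 members. Of these, 2 passed as lower in footprints in fbl-1 KD and 3 in fbl-2 KD, beside 0.488% and 1.96% of all genes tested. Over all members tested the shares were 17.2% and 26.7%. MOGAT2 (SMED30022665) matches the acyltransferase that rebuilds fat from absorbed monoacylglycerol in the mammalian gut. MOGAT2 mRNA was 136, 183 and 187 in the libraries labelled fbl-1 KD, against 352, 317 and 388 in egfp KD libraries. It was 196, 195 and 247 in the libraries labelled fbl-2 KD, against 451, 464 and 376 in egfp 2x KD libraries. The mRNA stood at 47.9% of control in fbl-1 KD and at 49.4% in fbl-2 KD. MOGAT2 footprints were 353, 436 and 373 in those labelled fbl-1 KD, against 747, 869 and 682 in egfp KD libraries, a change of -0.98 ± 0.17 (adjusted p = 0.033) that passed. In fbl-2 KD, where they were 227, 223 and 216 in those labelled fbl-2 KD, against 331, 248 and 483 in egfp 2x KD libraries, the groups did not overlap but the change of -0.62 ± 0.27 (adjusted p = 0.30) did not pass.

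MTTP (SMED30015218) matches the protein that loads lipid onto nascent lipoproteins. MTTP mRNA was 998, 1099 and 1080 in the libraries labelled fbl-1 KD, against 1432, 1625 and 1586 in egfp KD libraries. It was 613, 655 and 905 in the libraries labelled fbl-2 KD, against 1717, 1680 and 1444 in egfp 2x KD libraries. The lower level in fbl-2 KD was seen in footprints too, at 398, 671 and 496 in those labelled fbl-2 KD, against 1059, 978 and 953 in egfp 2x KD libraries, with a limma change of -0.96 ± 0.18 (adjusted p = 0.0020). In fbl-1 KD the footprints, 648, 680 and 738 in those labelled fbl-1 KD, against 893, 829 and 693 in egfp KD libraries, overlapped and had -0.22 ± 0.16 (adjusted p = 0.54).

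TMPRSS15 (SMED30034127) matches enteropeptidase, the protease that activates trypsinogen in the mammalian gut. TMPRSS15 mRNA was 189, 274 and 198 in the libraries labelled fbl-1 KD, against 477, 379 and 347 in egfp KD libraries. It was 228, 154 and 248 in the libraries labelled fbl-2 KD, against 385, 428 and 349 in egfp 2x KD libraries. All knockdown mRNA values were under all controls, as the choice of members required. The footprint changes were -0.72 (adjusted p = 0.19) in fbl-1 KD and -0.80 (adjusted p = 0.22) in fbl-2 KD by limma. STRA6 (SMED30007314), named after the vertebrate receptor that takes up retinol, is annotated to protonephridia, the planarian excretory organs. STRA6 mRNA was 76, 73 and 61 in the libraries labelled fbl-1 KD, against 148, 152 and 181 in egfp KD libraries. It was 91, 138 and 107 in the libraries labelled fbl-2 KD, against 180, 174 and 143 in egfp 2x KD libraries. In fbl-2 KD the highest knockdown value came close to the lowest control. STRA6 footprints had -0.74 (adjusted p = 0.37) and -1.02 (adjusted p = 0.34) in fbl-1 KD and in fbl-2 KD.

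Os01g0290100 (SMED30027034), a gene whose best match is a rice protein called a putative L-cysteine desulfhydrase, had mRNA of 199, 210 and 193 in the libraries labelled fbl-1 KD, against 501, 519 and 575 in egfp KD libraries. It had 255, 216 and 310 in the libraries labelled fbl-2 KD, against 458, 536 and 467 in egfp 2x KD libraries. Its footprints passed in both, at -1.33 ± 0.21 (adjusted p = 0.027) in fbl-1 KD and -0.93 ± 0.26 (adjusted p = 0.046), just under the threshold, in fbl-2 KD. ALDH8A1 (SMED30028611), an aldehyde dehydrogenase of tryptophan breakdown, had footprints of 549, 545 and 669 in those labelled fbl-2 KD, against 1013, 1258 and 1040 in egfp 2x KD libraries, and passed there at -0.91 ± 0.16 (adjusted p = 0.00091). In fbl-1 KD it had -0.69 ± 0.16 (adjusted p = 0.084) with no overlap.

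TTPAL (SMED30008074), a relative of the vitamin E transfer protein, is annotated to the pharynx alone. The study measured a gene called ttpal among its epidermal signatures after fbl-2 KD, and whether that is this entry is not known here. TTPAL had mRNA differences of -1.14 in fbl-1 KD and -0.53 in fbl-2 KD, and footprint changes of -1.08 (adjusted p = 0.41) and -1.18 (adjusted p = 0.11). For CMA1 (SMED30035366), a match of a mast cell protease of mammals, footprints had -0.94 (adjusted p = 0.20) and -0.68 (adjusted p = 0.61). BDH1 (SMED30024023), an enzyme of ketone bodies, had -0.38 (adjusted p = 0.52) and -0.32 (adjusted p = 0.85). None of these 3 passed in either knockdown. The list of lipid genes by symbol held 24 genes with 4 members, and among its genes that are neither members nor left out 0 passed as lower and 1 as higher of 19 tested in fbl-1 KD, with a median change of 0.23 (at an unadjusted p under 0.05, 2 lower and 6 higher), and 1 passed as lower and 0 as higher of 18 tested in fbl-2 KD, with a median change of -0.05 (at an unadjusted p under 0.05, 4 lower and 3 higher). Of the other genes on a list of 20 peptidases, 0 passed as lower and 0 as higher of 16 tested in fbl-1 KD, with a median change of 0.38 (at an unadjusted p under 0.05, 2 lower and 5 higher), and 0 passed as lower and 0 as higher of 17 tested in fbl-2 KD, with a median change of 0.01 (at an unadjusted p under 0.05, 2 lower and 2 higher).

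**Figure D3:**
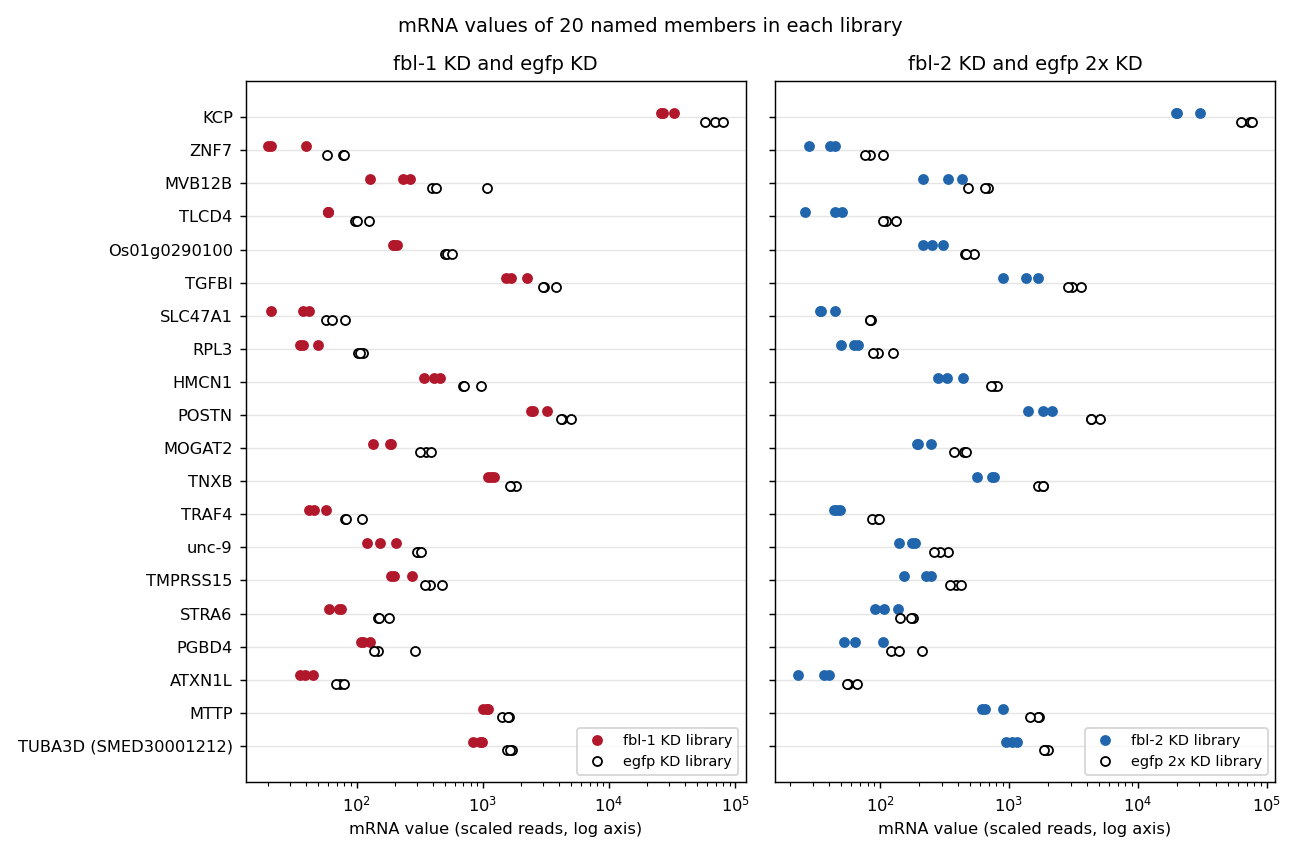
mRNA values of the 20 named members with the lowest mean mRNA difference, on a log axis in scaled reads, in each library labelled fbl-1 KD (red) and egfp KD (open) on the left, and fbl-2 KD (blue) and egfp 2x KD (open) on the right. No knockdown point reaches a control point, as the choice of members required, and MVB12B has 1 egfp KD library, at 1086, apart from its other 2.

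The members include 8 membrane transporters. Of these, 0 were called in footprints in fbl-1 KD and 2 in fbl-2 KD, beside 0.488% and 1.96% of all genes tested called lower. Over all members tested the shares were 17.2% and 26.7%. SLC47A1 (SMED30021877) and SLC47A2 (SMED30019939) match the MATE exporters that pump organic cations out of mammalian kidney and liver cells. SLC47A1 mRNA was 21, 42 and 38 in the libraries labelled fbl-1 KD, against 81, 57 and 64 in egfp KD libraries. It was 34, 35 and 45 in the libraries labelled fbl-2 KD, against 85, 83 and 83 in egfp 2x KD libraries. Reads were few, and its footprints had -1.77 (adjusted p = 0.39) in fbl-1 KD and -1.56 (adjusted p = 0.28) in fbl-2 KD. SLC47A2 had -0.84 and -0.74 in mRNA and -0.59 (adjusted p = 0.45) and -1.22 (adjusted p = 0.075) in footprints. Since unique reads were counted, near-identical copies could lose reads, and the paired SLC47A, ABCG2 and TUBA3D genes are uncertain in that respect.

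Both genes named ABCG2, after an efflux pump of mammalian gut and liver, are annotated to the intestine alone, and both fell in footprints under fbl-2 KD. ABCG2 SMED30017487 had footprints of 211, 224 and 219 in those labelled fbl-2 KD, against 489, 383 and 470 in egfp 2x KD libraries, a limma change of -1.03 ± 0.23 (adjusted p = 0.011). ABCG2 SMED30032299 had 266, 119 and 297 in those labelled fbl-2 KD, against 614, 666 and 750 in egfp 2x KD libraries, a change of -1.67 ± 0.27 (adjusted p = 0.00049). Neither overlapped in fbl-2 KD. In fbl-1 KD, SMED30017487 overlapped its controls (-0.16, adjusted p = 0.73) and SMED30032299 did not (-0.67, adjusted p = 0.15), and neither passed. The mRNA differences were -0.56 and -0.79 for SMED30017487 and -0.52 and -0.80 for SMED30032299 in fbl-1 KD and in fbl-2 KD.

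The other transporters did not pass in footprints. SLC24A5 (SMED30001319), a potassium-dependent sodium and calcium exchanger, had -0.76 (adjusted p = 0.16) in fbl-1 KD and -0.51 (adjusted p = 0.55) in fbl-2 KD. SLC22A15 (SMED30016659), of the organic ion transporters, had -0.61 (adjusted p = 0.23) and -0.80 (adjusted p = 0.46). SLC49A3 (SMED30015925) had -0.01 (adjusted p = 0.98) and -0.50 (adjusted p = 0.54), and SLC35B1 (SMED30018508), which carries nucleotides across the endoplasmic reticulum membrane, had -0.27 (adjusted p = 0.76) and -0.49 (adjusted p = 0.46). Their mRNA differences ranged between -0.93 and -0.51. The list of solute carriers and ABC transporters held 88 genes, and among those that are neither members nor left out 0 passed as lower and 3 as higher of 63 tested in fbl-1 KD, with a median change of 0.19 (at an unadjusted p under 0.05, 3 lower and 13 higher), and 1 passed as lower and 0 as higher of 66 tested in fbl-2 KD, with a median change of -0.03 (at an unadjusted p under 0.05, 5 lower and 5 higher).

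Of 6 members of the cytoskeleton and of membrane traffic, 4 passed as lower in footprints in both knockdowns, beside 0.196% of all genes. They include 3 alpha tubulin genes, which encode a building block of microtubules. In fbl-1 KD the call of each of these tubulin genes held in 2 of the 6 omissions of a library. TUBA3D SMED30001212 mRNA was 945, 981 and 835 in the libraries labelled fbl-1 KD, against 1690, 1558 and 1630 in egfp KD libraries. It was 1160, 944 and 1062 in the libraries labelled fbl-2 KD, against 1912, 2024 and 1874 in egfp 2x KD libraries. Its footprints were 960, 878 and 898 in those labelled fbl-1 KD, against 1669, 1565 and 1416 in egfp KD libraries, and 1107, 1247 and 1294 in those labelled fbl-2 KD, against 1960, 2191 and 1777 in egfp 2x KD libraries. The groups did not overlap in footprints, and in mRNA the choice of members required the same. In footprints limma gave -0.76 ± 0.14 (adjusted p = 0.036) in fbl-1 KD and -0.70 ± 0.12 (adjusted p = 0.0011) in fbl-2 KD. TUBA3D SMED30008655, annotated like the first to neurons and muscle, had footprints of 2350, 2554 and 2432 in those labelled fbl-1 KD, against 4241, 4453 and 4442 in egfp KD libraries, and of 3179, 4049 and 2771 in those labelled fbl-2 KD, against 5627, 6019 and 5071 in egfp 2x KD libraries. It was lower without overlap in both, with changes of -0.84 ± 0.12 (adjusted p = 0.017) and -0.76 ± 0.11 (adjusted p = 0.00018). TUBA1A (SMED30021235), annotated to intestine and cathepsin+ cells, had footprints of 3703, 3660 and 3329 in those labelled fbl-1 KD, against 5808, 5576 and 6916 in egfp KD libraries, and of 2986, 3449 and 3088 in those labelled fbl-2 KD, against 6158, 5404 and 5348 in egfp 2x KD libraries. Its changes were -0.77 ± 0.13 (adjusted p = 0.034) in fbl-1 KD and -0.83 ± 0.09 (adjusted p = 5.1e-06) in fbl-2 KD. None of the TUBA1A values overlapped. Of the other alpha and beta tubulins on the list of 25, 0 passed as lower and 0 as higher of 8 tested in fbl-1 KD, with a median change of 0.33 (at an unadjusted p under 0.05, 1 lower and 1 higher), and 2 passed as lower and 0 as higher of 10 tested in fbl-2 KD, with a median change of -0.59 (at an unadjusted p under 0.05, 2 lower and 0 higher).

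MVB12B (SMED30017445) matches a subunit of the complex that sorts membrane proteins into multivesicular bodies, and had the lowest mRNA difference of all members in fbl-1 KD. MVB12B mRNA was 127, 235 and 265 in the libraries labelled fbl-1 KD, against 1086, 398 and 429 in egfp KD libraries. It was 433, 334 and 216 in the libraries labelled fbl-2 KD, against 482, 689 and 655 in egfp 2x KD libraries. The egfp KD library at 1086 stood far above its other 2 at 398 and 429. That spread was not seen in its footprints, which were 176, 190 and 210 in those labelled fbl-1 KD, against 569, 554 and 552 in egfp KD libraries, and 190, 125 and 170 in those labelled fbl-2 KD, against 378, 439 and 307 in egfp 2x KD libraries. Both changes passed, at -1.54 ± 0.17 (adjusted p = 0.0096) and -1.21 ± 0.28 (adjusted p = 0.012). RAB6B (SMED30029369), a small GTPase of the Golgi, had footprint changes of -1.86 (adjusted p = 0.23) and -0.82 (adjusted p = 0.48), and TMEM30A (SMED30034222), a partner of lipid flippases, had -2.07 (adjusted p = 0.40) and -1.98 (adjusted p = 0.63) on footprint control means of 25.7 in egfp KD and 20.3 in egfp 2x KD.

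Signalling proteins account for 6 members. Of them 1, DLL4 (SMED30002925), the match of a Notch ligand, passed in footprints, in fbl-2 KD, beside 1.96% of all genes tested. DLL4 mRNA was 930, 1064 and 868 in the libraries labelled fbl-1 KD, against 1150, 1493 and 1490 in egfp KD libraries. It was 668, 892 and 756 in the libraries labelled fbl-2 KD, against 1509, 1244 and 1346 in egfp 2x KD libraries. DLL4 footprints were 2069, 1534 and 2087 in those labelled fbl-2 KD, against 2586, 2583 and 3345 in egfp 2x KD libraries, a limma change of -0.58 ± 0.13 (adjusted p = 0.0091). In fbl-1 KD the value was -0.36 ± 0.14 (adjusted p = 0.26). TRAF4 (SMED30025885), an adaptor of TNF receptors, had mRNA of 46, 57 and 42 in the libraries labelled fbl-1 KD, against 81, 83 and 110 in egfp KD libraries. It had 46, 44 and 49 in the libraries labelled fbl-2 KD, against 97, 87 and 99 in egfp 2x KD libraries. TRAF4 footprints were low and scattered, 56, 39 and 49 in those labelled fbl-2 KD, against 83, 90 and 13 in egfp 2x KD libraries, and gave -1.40 (adjusted p = 0.22) in fbl-1 KD and 0.03 (adjusted p = 0.99) in fbl-2 KD.

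FZD8 (SMED30025972), a Wnt receptor, had mRNA differences of -0.60 and -0.61 and footprint changes of -0.41 (adjusted p = 0.58) and -0.64 (adjusted p = 0.56). SFRP5 (SMED30022468), a secreted Wnt inhibitor in vertebrates, had -0.96 and -0.61 in mRNA. SFRP5 footprints were 76, 127 and 103 in those labelled fbl-1 KD, against 205, 211 and 211 in egfp KD libraries, and 66, 89 and 109 in those labelled fbl-2 KD, against 147, 112 and 129 in egfp 2x KD libraries, without overlap in both but with changes of -1.06 (adjusted p = 0.10) and -0.57 (adjusted p = 0.61) that did not pass. SMAD7 (SMED30007744), an inhibitor inside the TGF-beta pathway, and STK33 (SMED30028154), a protein kinase, did not pass, at -0.49 (adjusted p = 0.45) and -0.31 (adjusted p = 0.72) for SMAD7 and -1.28 (adjusted p = 0.20) and -1.29 (adjusted p = 0.22) for STK33. With KCP, FZD8 and SFRP5 are the members on a list of 17 Wnt and BMP genes, and of its other genes 0 passed as lower and 0 as higher of 10 tested in fbl-1 KD, with a median change of -0.13 (at an unadjusted p under 0.05, 1 lower and 2 higher), and 0 passed as lower and 0 as higher of 10 tested in fbl-2 KD, with a median change of 0.00 (at an unadjusted p under 0.05, 0 lower and 2 higher).

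Another 7 members match proteins of transcription or chromatin, and 1 of them passed in footprints, in both knockdowns, beside 0.196% of all genes. ZNF7 (SMED30023755), a zinc finger protein, had mRNA of 21, 40 and 20 in the libraries labelled fbl-1 KD, against 78, 58 and 80 in egfp KD libraries. It had 41, 45 and 28 in the libraries labelled fbl-2 KD, against 105, 84 and 77 in egfp 2x KD libraries. Its footprints were near nothing in the first pair, with 0, 6 and 6 in those labelled fbl-1 KD, against 16, 20 and 9 in egfp KD libraries, too low for the test, and were 33, 115 and 24 in those labelled fbl-2 KD, against 27, 51 and 21 in egfp 2x KD libraries, overlapping at 0.54 (adjusted p = 0.82). ATXN1L (SMED30028043), a relative of the ataxin-1 corepressor, had mRNA of 39, 45 and 36 in the libraries labelled fbl-1 KD, against 74, 69 and 80 in egfp KD libraries. It had 40, 37 and 23 in the libraries labelled fbl-2 KD, against 66, 56 and 55 in egfp 2x KD libraries. Its footprints had -0.79 (adjusted p = 0.37) in fbl-1 KD and -2.21 (adjusted p = 0.31) in fbl-2 KD, where 1 knockdown library read 1 and the other 2 read 40 and 53.

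SMED30011862, which has no symbol and is described as an HMG box protein, the DNA-binding domain of several transcription factors, passed in both knockdowns. Its footprints were 347, 304 and 281 in those labelled fbl-1 KD, against 662, 615 and 584 in egfp KD libraries, and 462, 371 and 433 in those labelled fbl-2 KD, against 813, 716 and 639 in egfp 2x KD libraries. The changes were -0.999 ± 0.17 (adjusted p = 0.030) and -0.77 ± 0.18 (adjusted p = 0.014). The remaining members of this kind did not pass. THRA (SMED30030948), a thyroid hormone receptor match, had -0.24 (adjusted p = 0.63) in fbl-1 KD and -0.51 (adjusted p = 0.37) in fbl-2 KD. ARID3C (SMED30018722) had -0.71 (adjusted p = 0.27) and -0.65 (adjusted p = 0.32), TFAP2D (SMED30020522) had -0.89 (adjusted p = 0.32) and -0.25 (adjusted p = 0.86), and the chromatin remodeller match CHD1L (SMED30013596) had -0.49 (adjusted p = 0.57) and -1.26 (adjusted p = 0.20).

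Proteins of excitable cells account for 3 members. unc-9 (SMED30023483) matches an innexin, the protein of invertebrate gap junctions, which couples motor neurons in *Caenorhabditis elegans*. unc-9 mRNA was 206, 120 and 154 in the libraries labelled fbl-1 KD, against 309, 303 and 325 in egfp KD libraries. It was 177, 187 and 140 in the libraries labelled fbl-2 KD, against 339, 292 and 263 in egfp 2x KD libraries. unc-9 footprints were 164, 135 and 111 in those labelled fbl-1 KD, against 319, 345 and 308 in egfp KD libraries, and 179, 260 and 232 in those labelled fbl-2 KD, against 338, 306 and 283 in egfp 2x KD libraries. Neither pair overlapped, and limma gave -1.26 ± 0.22 (adjusted p = 0.036) in fbl-1 KD and -0.48 ± 0.26 (adjusted p = 0.44) in fbl-2 KD. KCNA2 (SMED30019915), a potassium channel, had 0.10 (adjusted p = 0.90) and -0.15 (adjusted p = 0.93), and NRXN3 (SMED30034068), a synaptic adhesion protein, had -0.27 (adjusted p = 0.73) and -0.75 (adjusted p = 0.24).

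**Figure D4:**
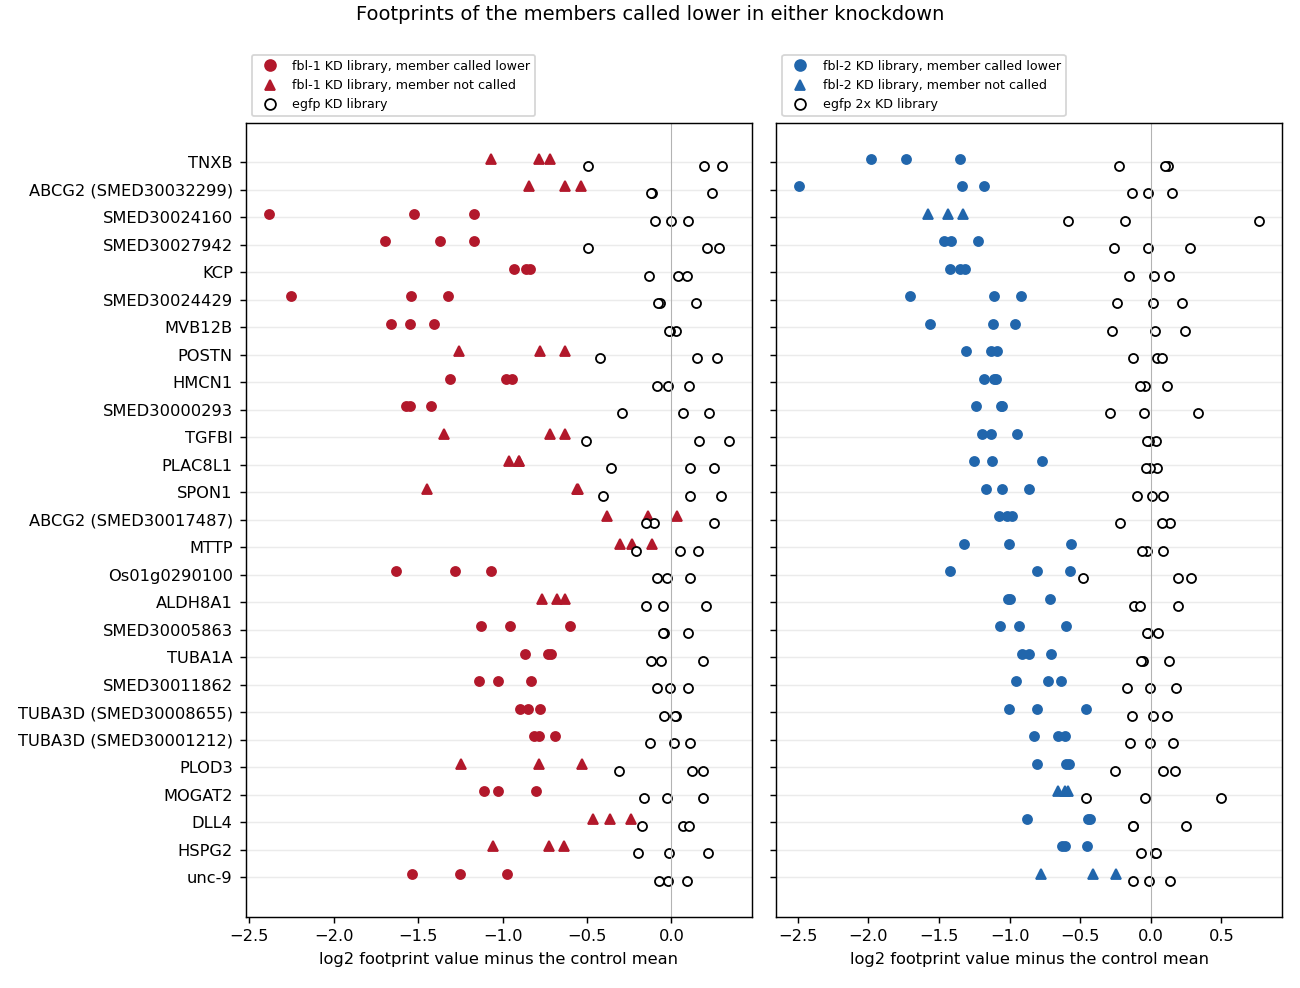
Footprints of the 27 members called lower in either knockdown, as log2 value minus the control mean, with 1 point per library (knockdown coloured, control open) for fbl-1 KD on the left and fbl-2 KD on the right. Circles mark a member called in that knockdown and triangles one that was not. TNXB and 1 ABCG2 gene are lowest in fbl-2 KD, at -1.69 ± 0.14 and -1.67 ± 0.27 (limma's SE).

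Among the other named members, RPL3 (SMED30005998) is named after a protein of the large ribosomal subunit. RPL3 mRNA was 50, 36 and 38 in the libraries labelled fbl-1 KD, against 112, 102 and 107 in egfp KD libraries. It was 63, 67 and 50 in the libraries labelled fbl-2 KD, against 96, 89 and 125 in egfp 2x KD libraries. Its footprints were 26, 70 and 34 in those labelled fbl-1 KD, against 143, 120 and 98 in egfp KD libraries, and 63, 95 and 59 in those labelled fbl-2 KD, against 157, 262 and 126 in egfp 2x KD libraries, without overlap in both, at -1.56 (adjusted p = 0.12) and -1.28 (adjusted p = 0.13). Neither passed. RPL3 is the only member on the list of 16 such genes, of whose others 0 passed as lower and 0 as higher of 14 tested in fbl-1 KD, with a median change of -0.44 (at an unadjusted p under 0.05, 10 lower and 0 higher), and 8 passed as lower and 0 as higher of 14 tested in fbl-2 KD, with a median change of -0.56 (at an unadjusted p under 0.05, 11 lower and 0 higher).

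TLCD4 (SMED30017153), named for a domain of membrane proteins, had mRNA of 60, 59 and 60 in the libraries labelled fbl-1 KD, against 98, 101 and 125 in egfp KD libraries. It had 45, 26 and 51 in the libraries labelled fbl-2 KD, against 111, 132 and 105 in egfp 2x KD libraries. The fbl-1 KD values were nearly equal, and the fbl-2 KD values reached further down, while its footprints had -0.35 (adjusted p = 0.58) and -1.14 (adjusted p = 0.21). PGBD4 (SMED30011232), a gene derived from a piggyBac transposon, had mRNA of 108, 113 and 129 in the libraries labelled fbl-1 KD, against 148, 292 and 137 in egfp KD libraries. It had 64, 105 and 53 in the libraries labelled fbl-2 KD, against 211, 122 and 141 in egfp 2x KD libraries. In the first pair 1 control, at 292, stood apart. PGBD4 footprints had 0.17 (adjusted p = 0.92) and -0.55 (adjusted p = 0.70).

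PLAC8L1 (SMED30035840), annotated to the intestine, passed in fbl-2 KD, with footprints of 332, 425 and 303 in those labelled fbl-2 KD, against 745, 721 and 707 in egfp 2x KD libraries, a change of -1.05 ± 0.19 (adjusted p = 0.0014). It had -0.92 ± 0.19 (adjusted p = 0.058) in fbl-1 KD, again without overlap. DAD1 (SMED30028353), a subunit of the enzyme that attaches sugar chains to proteins, had -0.65 (adjusted p = 0.15) and -0.70 (adjusted p = 0.14). The small heat shock protein hsp-16.2 (SMED30026445) had -0.82 (adjusted p = 0.19) and -0.11 (adjusted p = 0.94), the bacterial-type universal stress protein MSMEG_3950 (SMED30008017) had -0.70 (adjusted p = 0.31) and -0.79 (adjusted p = 0.25), and the galactosyltransferase match B3GALT5 (SMED30012533) had 0.87 (adjusted p = 0.79) and -0.73 (adjusted p = 0.82). In fbl-2 KD 11 members had a footprint change above 0. A12 (SMED30018548), matched to a tegument antigen of parasitic flatworms, was the 1 member above all controls there without overlap. A12 footprints were 103, 127 and 80 in those labelled fbl-2 KD, against 67, 64 and 70 in egfp 2x KD libraries, not past the test at 0.59 (adjusted p = 0.64). Its mRNA there was 34, 46 and 39 in the libraries labelled fbl-2 KD, against 75, 74 and 50 in egfp 2x KD libraries.

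The 34 members without a name comprise 24 with an entry in the study's annotation and 10 with none. Of the first kind, 6 were called lower in footprints in fbl-1 KD and 5 in fbl-2 KD, of 24 tested in each. Of all genes tested, 0.488% and 1.96% were called lower. Of the second kind, 0 of 7 and 0 of 9 passed, and their footprint medians were 0.00 in fbl-1 KD and 0.17 in fbl-2 KD. In reads per gene, not per length, their control footprints had a median of 46.8 in egfp KD, against 263 for the named members, while their control mRNA had a median of 98, against 305.

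SMED30004451, with the lowest mean mRNA difference among the unnamed, had mRNA of 5912, 5523 and 5046 in the libraries labelled fbl-1 KD, against 10519, 11043 and 10318 in egfp KD libraries. It had 4470, 2963 and 4887 in the libraries labelled fbl-2 KD, against 11252, 13491 and 10459 in egfp 2x KD libraries. Its footprints were 356, 94 and 151 in those labelled fbl-1 KD, against 178, 139 and 570 in egfp KD libraries, and 186, 241 and 278 in those labelled fbl-2 KD, against 327, 193 and 176 in egfp 2x KD libraries, overlapping in both (-0.49, adjusted p = 0.71 in fbl-1 KD and 0.05, adjusted p = 0.96 in fbl-2 KD). SMED30027587 had mRNA of 123, 124 and 95 in the libraries labelled fbl-1 KD, against 204, 148 and 207 in egfp KD libraries. It had 51, 65 and 74 in the libraries labelled fbl-2 KD, against 182, 228 and 227 in egfp 2x KD libraries, the lowest mRNA difference of all members in fbl-2 KD. Its footprints gave -1.08 (adjusted p = 0.099) and -2.64 (adjusted p = 0.13), the second with 1 knockdown library at 2.

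Of the unnamed members, 6 passed in footprints, counting the HMG box gene. SMED30000293 had changes of -1.51 (adjusted p = 0.0081) in fbl-1 KD and -1.12 (adjusted p = 0.0006) in fbl-2 KD. SMED30024429, annotated to the intestine, had -1.71 (adjusted p = 0.016) and -1.24 (adjusted p = 0.0079), and SMED30027942 had -1.41 (adjusted p = 0.027) and -1.37 (adjusted p = 0.0011). SMED30005863, annotated to cathepsin+ cells and intestine, had footprints of 3584, 5154 and 4028 in those labelled fbl-1 KD, against 8358, 7571 and 7555 in egfp KD libraries, and of 5766, 7971 and 6317 in those labelled fbl-2 KD, against 12504, 11947 and 11845 in egfp 2x KD libraries. It passed in both, at -0.89 (adjusted p = 0.033) and -0.87 (adjusted p = 3.1e-06). SMED30024160 passed in fbl-1 KD (-1.69, adjusted p = 0.033) and had -1.45 (adjusted p = 0.054) in fbl-2 KD, just above the threshold. In its footprints, 97, 227 and 177 in those labelled fbl-1 KD, against 548, 510 and 479 in egfp KD libraries, no value overlapped.

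The largest share of the annotated members belongs to the gut. The study's annotation gives cell types for 57 members, and the intestine is among them for 26, the cathepsin+ cells for 13, muscle for 12 and neurons for 8. The annotation entries held are a part of the study's table, ordered by change, so these shares are counts only. In the same entries the intestine is among the types of 411 of 1996 genes and neurons of 801, so the intestine accounts for 45.6% of the annotated members and 20.6% of the annotated entries, and neurons for 14.04% and 40.1%. In the same order, cathepsin+ cells account for 22.8% and 23.6%, muscle for 21.1% and 12.2%, and the epidermis for 10.5% and 31.9%. The 26 intestine members had median mRNA differences of -0.85 in fbl-1 KD and -0.79 in fbl-2 KD. Their median footprint changes were -0.84 and -0.95, and 8 passed in fbl-1 KD and 14 in fbl-2 KD. Of all genes tested, 0.488% and 1.96% were called lower, and of all members tested 17.2% and 26.7%. The 31 members annotated to other types had footprint medians of -0.70 and -0.57, with 3 and 5 passing. Between intestine and other members the difference was not tested.

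Other genes of the gut did not all follow. The 113 genes annotated to the intestine alone that are neither members nor left out by name summed to 178145 to 197470 scaled mRNA reads in the libraries labelled fbl-1 KD, against 166327 to 187828 in egfp KD libraries, an overlapping range. In fbl-2 KD they summed to 159360 to 177765, against 188958 to 204203 in egfp 2x KD libraries, lower without overlap. Their footprints summed to 300471 to 317544 in the libraries labelled fbl-1 KD, against 241483 to 280573 in egfp KD libraries, and to 330564 to 364545 in those labelled fbl-2 KD, against 325356 to 369588 in egfp 2x KD libraries, higher without overlap in the first pair and overlapping in the second. Of those with a control mean of 50 or more, 17 of 93 were lower in mRNA by 0.5 or more without overlap in fbl-1 KD and 17 were higher. In fbl-2 KD 10 of 98 were lower and 5 higher. Of all genes with a control mean of 50 or more, 4.49% in fbl-1 KD and 1.93% in fbl-2 KD were lower by these limits. The other gut genes were thus lower more often than the table as a whole. Their median mRNA differences were -0.01 in fbl-1 KD, with 47 of 93 below 0, and -0.26 in fbl-2 KD, with 68 of 98 below 0. For those with a footprint control mean of 50 or more, footprint medians were 0.01 and -0.22, with 47 of 96 and 69 of 97 below 0. Genes annotated to the cathepsin+ cells alone, 137 in number, summed to 99925 to 101984 in the libraries labelled fbl-1 KD, against 84941 to 89988 in egfp KD libraries, and to 105167 to 110488 in those labelled fbl-2 KD, against 92109 to 95344 in egfp 2x KD libraries, higher without overlap in both. The mRNA sums of the 69 genes of muscle alone overlapped in both. Among genes at a control mean of 50 or more, cathepsin+ cells had median mRNA differences of 0.33 in fbl-1 KD and 0.26 in fbl-2 KD. In the same order, neurons had 0.35 and 0.18, pharynx 0.34 and 0.18, and parapharyngeal cells 0.41 and 0.39. Protonephridia had 0.34 and 0.16, epidermis 0.19 and 0.37, and muscle -0.06 and -0.30. Higher values were thus not particular to cathepsin+ cells, in entries that are ordered by change.

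Stem cell genes did not all move together. Of the markers, piwi-1 had mRNA differences of -0.70 in fbl-1 KD and -0.21 in fbl-2 KD, vasa-1 had -0.39 and -0.16, and MCM2 had -0.43 and 0.02. Their sum, in which piwi-1 has the highest level, was 11938 to 12837 in the libraries labelled fbl-1 KD, against 17823 to 19215 in egfp KD libraries, and 14797 to 16936 in the libraries labelled fbl-2 KD, against 17534 to 18275 in egfp 2x KD libraries, lower without overlap in both. The 114 genes annotated to neoblasts alone summed to 52593 to 56435 in the libraries labelled fbl-1 KD, against 54460 to 57926 in egfp KD libraries, and to 49092 to 58284 in the libraries labelled fbl-2 KD, against 53490 to 56645 in egfp 2x KD libraries, overlapping in both, with median mRNA differences of -0.16 and 0.13. Their footprints summed to 51025 to 56726 in the libraries labelled fbl-1 KD, against 59788 to 62548 in egfp KD libraries, and to 58725 to 59336 in the libraries labelled fbl-2 KD, against 60306 to 64147 in egfp 2x KD libraries, lower without overlap in both.

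Among the 5 epidermal lineage markers (prog-1, AGAT-1, zpuf-3, zpuf-4 and egr-5), mRNA differences ran apart, with -0.57 in fbl-1 KD and -0.03 in fbl-2 KD for prog-1 and 0.52 and 0.73 for egr-5. Their mRNA sums overlapped in both, at 3428 to 3706 in the libraries labelled fbl-1 KD, against 3270 to 4343 in egfp KD libraries, and at 3540 to 4138 in the libraries labelled fbl-2 KD, against 3352 to 3619 in egfp 2x KD libraries. Their footprint sums overlapped in fbl-1 KD, at 4622 to 6022 against 5671 to 7330. In fbl-2 KD they were lower without overlap, at 3782 to 3974 against 4212 to 4369, although egr-5 footprints were higher there, at 0.83. The 128 genes annotated to the epidermis alone summed to 65962 to 69190 in the libraries labelled fbl-1 KD, against 53370 to 63411 in egfp KD libraries, and to 70795 to 80866 in the libraries labelled fbl-2 KD, against 59033 to 61192 in egfp 2x KD libraries, higher without overlap in both, whereas their footprint sums overlapped in both. No marker has a group mean of 0 in mRNA or footprints. The part of cell type content in the members' values was not tested.

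Between the 2 knockdowns, the mRNA difference was the lower one in fbl-1 KD for 53 members and in fbl-2 KD for 38, and 6 members lay over 0.5 apart in each direction. MVB12B, RPL3, STRA6, TTPAL and unnamed SMED30002356 and SMED30005863 were lower in fbl-1 KD by that margin. TNXB, TLCD4, POSTN, MTTP and unnamed SMED30027587 and SMED30004451 were lower in fbl-2 KD. The control groups were close, with the egfp 2x KD mean over the egfp KD mean at a median of 1.03 and between 0.689 and 1.40 over the members, although the tables were scaled apart.

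In footprints, the limma contrast of the change in fbl-1 KD minus the change in fbl-2 KD called 0 of 90 members tested, beside 0.107% of all 13100 genes. At an unadjusted p under 0.05 it marked 7 members, of which 6 were lower in fbl-2 KD and 1 in fbl-1 KD. TNXB had 0.83 ± 0.27 (adjusted p = 0.64), MTTP had 0.75 ± 0.25 (adjusted p = 0.67), ABCG2 SMED30017487 had 0.86 ± 0.29 (adjusted p = 0.70) and ABCG2 SMED30032299 had 0.999 ± 0.39 (adjusted p = 0.77). KCP had 0.49 ± 0.19 (adjusted p = 0.77) and unc-9, the 1 lower in fbl-1 KD, had -0.78 ± 0.34 (adjusted p = 0.80). The seventh, unnamed SMED30010499, was too low for the test in fbl-1 KD. The median SE of this contrast was 0.46 over the members. The gene and the dose fed cannot be told apart in this contrast. A miss of the threshold does not show that the knockdowns acted alike, and a change called in 1 knockdown alone is not shown to be particular to it.

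**Figure D5:**
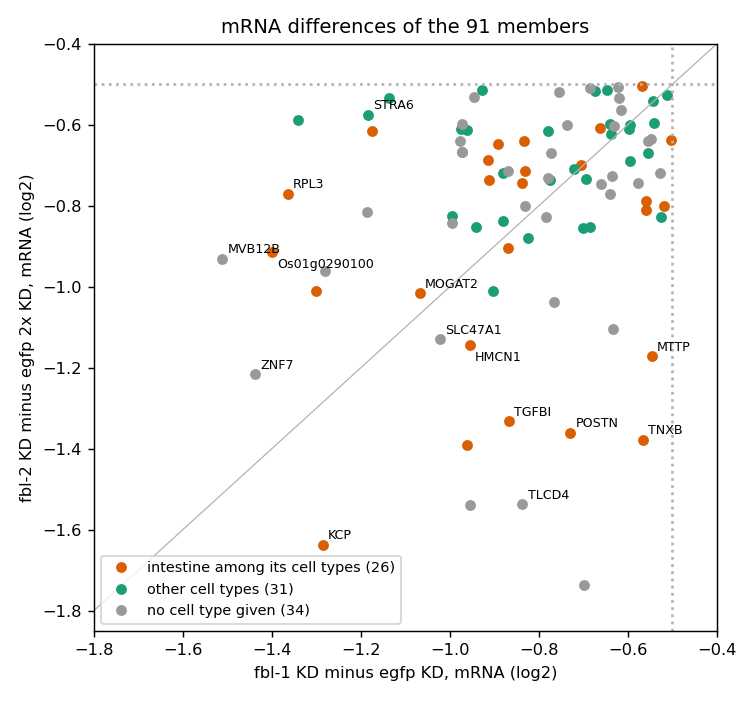
mRNA log2 difference of each member in fbl-1 KD (horizontal axis) and in fbl-2 KD (vertical axis), coloured by the study's cell type annotation. Dotted lines mark the limit of 0.5 that chose the members and the diagonal marks equal differences. KCP, at -1.29 and -1.64, is low in both, TNXB and MTTP lie far below the diagonal and MVB12B and RPL3 above it.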

How the data were processed

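RNA-seq and Ribo-seq libraries of 4 groups with 3 replicates each (12 libraries per assay) were used. According to the study's methods, reads were trimmed, ribosomal RNA reads were removed, the rest were aligned to a transcriptome of *S. mediterranea*, and reads with a unique alignment were counted for each gene. The tables deposited by the authors hold signal values, that is, reads of a gene after a scaling of every library and rounding: 9 of the 24 libraries lack some of the whole numbers between 1 and 40. How the factors were set is not given in the sources used here, and the raw depth is unknown, so no counting interval is given. Since the values are not counts, no count model was run.

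Members were found by the stated thresholds. They and the gene lists, taken by symbol, were chosen with earlier results of these data known. The lists draw only on the annotation entries held, a part of the study's table that is ordered by change. Footprints were tested with limma 3.58.1 in R 4.3.3 on log2(value + 1) with a mean-variance trend, for genes at 10 or more in at least 3 libraries, with Benjamini-Hochberg adjustment over all genes tested. Fold changes on this scale understate those of low genes. Replicates are pools of worms, and footprint columns were mapped to groups by name, with their replicate numbers used for the block alone. Members named are the 20 named ones with the lowest mean mRNA difference, those on a list, those passing in footprints, the 2 lowest unnamed ones and the neighbours of the thresholds; the other named members and further unnamed ones were chosen after their values were seen. The member-by-member values leave out 1 gene that is not reported here, which stays in the counts and medians. Gene names are the best protein matches in the study's supplement. The steps were tested on simulated data before use. Each simulated gene had the spread that the trend gives at its level, with no spread of its own. The simulation therefore cannot judge how far the calls depend on the mean-variance trend. Of 200 genes changed 2-fold there, 99 were found with 9 false calls in the fbl-1 KD simulation. In the fbl-2 KD simulation 94 of 200 were found with 11 false calls. Among calls at a mean of 100 or more, 3 of 100 and 2 of 95 were false in the same order. Alternatives were other pseudocounts, no filter, other scalings, no trend, 1 fit over all footprint libraries, a replicate block and leaving out each library.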

Additional observations from a re-analysis of the deposited data

How the results depend on the processing

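Leaving out 1 footprint library at a time, 0 to 22 members were called in fbl-1 KD and 19 to 29 in fbl-2 KD, with none higher. The members' median change then lay between -0.77 and -0.70 in fbl-1 KD and between -0.80 and -0.67 in fbl-2 KD. Without the mean-variance trend, 0 members were called in fbl-1 KD and 0 in fbl-2 KD by limma, with 50 and 43 lower at an unadjusted p under 0.05 and 1 higher in fbl-2 KD. With all 12 footprint libraries in 1 fit, 23 were called in fbl-1 KD, the 15 among them, and 22 in fbl-2 KD. Other pseudocounts, no filter on low values, median-of-ratios factors and quantile normalization gave 11 to 16 calls in fbl-1 KD and 23 to 25 in fbl-2 KD. The contrast of the knockdowns called 0 members in every alternative run, with 5 to 9 at an unadjusted p under 0.05. Only members that did not pass changed direction. With a pseudocount of 5, TRAF4 had -0.018 in fbl-2 KD, and with quantile normalization TRAF4 had -0.00524 there and SLC49A3 0.037 in fbl-1 KD. Over single omissions, changes ran across 0 in fbl-1 KD (-0.43 to 0.029 for A12, -0.63 to 1.78 for B3GALT5, -0.30 to 0.70 for PGBD4, -0.25 to 0.11 for SLC49A3) and in fbl-2 KD (-0.76 to 0.23 for BDH1, -0.16 to 0.057 for ITGA8, -0.64 to 0.14 for KCNA2, -0.55 to 0.0025 for TFAP2D, -0.85 to 0.50 for TRAF4, -0.12 to 0.98 for ZNF7, -0.45 to 0.066 for hsp-16.2). The cause was not tested. The number of members would be 84 to 99 under other pseudocounts and scalings, 88 to 111 without 1 mRNA library, 22 at a difference of 0.8 and 113 at a control mean of 20. With the replicate number as a block, 4 members were called in fbl-1 KD and 25 in fbl-2 KD, of which 4 and 24 are among those called without it. The numbers are not shown to pair the libraries: same-numbered knockdown and control libraries had correlations of their deviations from the group means of -0.12 to 0.17 in fbl-1 KD and 0.0055 to 0.041 in fbl-2 KD, and not every library correlated best with its own number. The effect of depth on members with few footprints was not tested.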
